A study of Mus musculus with 4 samples.

Results

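Accessible chromatin at 32 autosomal imprinted genes and at their control regions was described in mouse limb cells. The genes were taken from a list of known imprinted genes, and the rule uses no measured value, although the list was drawn up with earlier results of these data known. Every peak overlapping the mm10 body of such a gene, or the 20 kb on either side, was collected. Of the 32 genes, 31 are among the 30068 autosomal protein-coding or long noncoding RefSeq genes of known strand, and Peg13 has no strand. The 32 fall into 20 imprinted clusters, and 25 are protein-coding and 7 noncoding. Their windows held 251 of the 99427 peaks listed at E10.5 and 105 of the 37548 peaks listed at E11.5.

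The data came from ATAC-seq, in which the Tn5 transposase inserts sequencing adaptors where DNA is accessible. All 4 samples were wild-type mouse embryos with no treatment or engineered allele in their labels, and fore- and hindlimb cells were fixed before tagging. The number of embryos behind a sample is not given in the sources used here. By their titles, 2 replicates belong to stage E10.5 and 2 to stage E11.5 (E for embryonic day), although the protocol calls the earlier stage E10. The deposited files are 1 peak list per stage, joining both replicates, so no spread between replicates, no depth and no test of a stage difference was available. A value in one list is set beside the other without comparison of size, and reads of the maternal and paternal chromosomes are not separated.

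Imprinted genes are expressed mainly or only from the chromosome inherited from one parent. Most lie in clusters governed by a control region whose DNA is methylated in one germline and not in the other, and the methylation mark is kept in the body's cells after fertilisation. The protein ZFP57 binds a methylated hexamer in many control regions and keeps them methylated, whereas CTCF binds the unmethylated H19 control region and insulates Igf2 from shared enhancers. Several imprinted genes of the limb bud and other growing tissues act on growth, among them the growth factor Igf2, its clearing receptor Igf2r and the cell-cycle inhibitor Cdkn1c.

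The promoter sequences below show how widely the base composition of imprinted starts varied. Those of Peg3, Mest, Snrpn and Airn lie at starts counted below as control regions, each with a peak within 1 kb in both lists. Each printed sequence is only a part of its control region, and the peaks need not cover all of it. Meg3 also had a peak at its start in both lists, while its downstream neighbours Rian and Mirg had none within 1 kb in either. Each sequence is the 250 bases before the RefSeq start site in build GRCm38.p6, which has the mm10 coordinates, written 5′ to 3′ on the gene's strand with CpG dinucleotides in capitals.
Peg3, chr7:6730420-6730669, minus strand: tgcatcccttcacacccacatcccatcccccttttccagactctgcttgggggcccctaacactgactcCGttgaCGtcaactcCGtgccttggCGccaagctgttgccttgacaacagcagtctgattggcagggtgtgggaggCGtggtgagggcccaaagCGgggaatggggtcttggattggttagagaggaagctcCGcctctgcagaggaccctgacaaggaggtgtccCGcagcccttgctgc
Mest inner start, chr6:30737800-30738049, plus strand: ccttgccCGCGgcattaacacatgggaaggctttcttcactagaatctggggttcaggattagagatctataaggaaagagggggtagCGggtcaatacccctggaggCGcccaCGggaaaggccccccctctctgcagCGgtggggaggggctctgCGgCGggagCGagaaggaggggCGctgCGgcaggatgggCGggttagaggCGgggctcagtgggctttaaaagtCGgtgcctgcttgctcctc
Snrpn last start, chr7:60005200-60005449, minus strand: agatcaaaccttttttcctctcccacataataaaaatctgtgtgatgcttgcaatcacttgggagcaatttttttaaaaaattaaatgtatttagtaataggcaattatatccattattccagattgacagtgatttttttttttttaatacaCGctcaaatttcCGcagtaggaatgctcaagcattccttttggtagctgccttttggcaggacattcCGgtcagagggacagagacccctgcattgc
Airn, chr17:12741061-12741310, plus strand: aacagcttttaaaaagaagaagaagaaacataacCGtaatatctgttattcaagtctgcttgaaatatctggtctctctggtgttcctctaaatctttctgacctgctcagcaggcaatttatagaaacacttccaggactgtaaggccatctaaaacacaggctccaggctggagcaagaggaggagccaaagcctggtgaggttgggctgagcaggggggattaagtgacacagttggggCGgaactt
Meg3, chr12:109540746-109540995, plus strand: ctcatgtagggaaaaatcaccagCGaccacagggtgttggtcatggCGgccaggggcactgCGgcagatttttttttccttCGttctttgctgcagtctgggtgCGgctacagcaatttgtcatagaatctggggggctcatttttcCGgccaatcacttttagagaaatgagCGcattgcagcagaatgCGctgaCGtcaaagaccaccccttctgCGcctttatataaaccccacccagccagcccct
Rian, chr12:109603695-109603944, plus strand: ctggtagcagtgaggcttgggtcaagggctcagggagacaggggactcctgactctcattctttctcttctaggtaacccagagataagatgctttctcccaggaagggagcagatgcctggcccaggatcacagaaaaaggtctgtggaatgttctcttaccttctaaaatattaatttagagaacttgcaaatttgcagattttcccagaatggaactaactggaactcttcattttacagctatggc
Mirg, chr12:109734731-109734980, plus strand: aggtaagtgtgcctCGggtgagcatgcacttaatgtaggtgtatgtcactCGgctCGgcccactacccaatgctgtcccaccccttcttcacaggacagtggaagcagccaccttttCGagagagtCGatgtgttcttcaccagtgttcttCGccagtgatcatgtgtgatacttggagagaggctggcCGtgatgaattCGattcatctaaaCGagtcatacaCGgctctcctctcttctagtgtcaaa

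CpG dinucleotides, the sites of DNA methylation in mammals, numbered 8 in the printed Peg3 sequence, 14 in that of Mest, 3 in that of Snrpn, 2 in that of Airn, 10 in that of Meg3, 0 in that of Rian and 10 in that of Mirg. Accessible starts thus included both CpG-rich and CpG-poor sequences. RefSeq promoter entries were matched for 25 of the 32 members, with 40 start sites in all. H19, Cdkn1c, Peg10, Sgce, Rtl1, Impact and Peg13 were not matched.

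Over the 300 bp from 250 bases before to 50 after each start, 24 of the 40 member start sites held at least 10 CpG, and 23 of these (95.8%) had a peak within 1 kb in each list. Of all 13800 promoters with as many CpG, 95.2% had a peak at E10.5 and 90.7% at E11.5, so the members lay near the other CpG-rich promoters. The exception was Mirg, with 10 CpG and no peak. Of the 16 member starts with under 10 CpG, 7 (43.8%) had a peak at E10.5 and 6 (37.5%) at E11.5, beside 29.6% and 16.2% of all 17596 such promoters. The CpG-poor starts with a peak in both lists were those of Airn with 3 CpG, the outer start of Slc38a4 with 5, the last start of Snrpn with 7, 1 start of Igf2 with 7, and those of Kcnq1ot1 and Dlk1 with 9 each. The outer Mest start, with 8 CpG, had peaks at E10.5 only. Some starts share a peak: the inner Mest starts lie 3 bp apart and a pair of Gnas starts 19 bp apart, so the 40 sites are not independent.

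**Figure D1:**
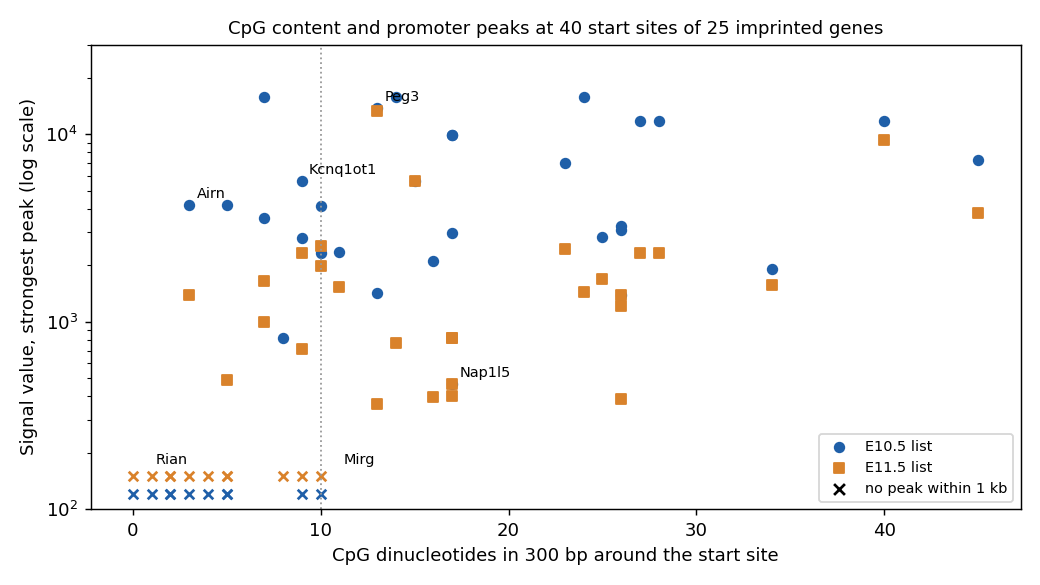
Each of the 40 start sites of 25 imprinted genes is placed by its CpG count in 300 bp (x axis) and by the signal value of the strongest peak within 1 kb (y axis, log scale), with blue circles for the E10.5 list and orange squares for the E11.5 list. Crosses at the bottom are starts with no peak; all but Mirg lie below the dotted limit of 10 CpG.

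The hexamer TGCCGC, the sequence ZFP57 binds when methylated, was searched on both strands of the 300 bp. It occurred at 10 of 40 member starts (25%) and at 11.6% of all 31396 promoters. Among starts with at least 10 CpG, it occurred at 37.5% of member starts and 22.2% of all. The 300 bp at each of the 2 inner Mest starts and at Nap1l5 held 2 copies. The inner Mest starts lie so close that nearly the same sequence was counted for both. For Snrpn, Meg3, Plagl1, Nnat, Mcts2, Grb10 and Igf2, 1 start each held 1 copy. Those of Meg3, Grb10 and Igf2 are not among the control regions counted below. The control-region starts of Peg3, Kcnq1ot1, Airn, Zrsr1 and Slc38a4 and the Gnas exon 1A starts held none in the 300 bp. A match is a description of the letters and not a binding site.

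Within 1 kb of a start site, 30 of the 32 genes had a peak at E10.5 and 29 at E11.5. All 25 protein-coding members had one at E10.5 and 24 at E11.5, beside 70.1% and 63.9% of all autosomal protein-coding genes. Of the 7 noncoding members, 5 had one in each list, and at E10.5 40.3% of autosomal long noncoding genes did, at E11.5 25.2%. The genes without a promoter peak were Rian and Mirg in both lists and Rtl1 in the E11.5 list, all in the Dlk1 to Mirg cluster. By parental origin, 22 of 22 paternally expressed members had a peak at E10.5 and 21 of 22 at E11.5. Of the maternally expressed members, 7 of 9 had one in each list, and those without were the noncoding Rian and Mirg. Parental origin can thus not be told apart here from gene type and cluster. The 22 include Inpp5f, whose counted start is that of the full-length gene and not of the imprinted short variant. Gnas, which has promoters of both kinds, had peaks in both lists.

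The distance of 1 kb decided few genes. Just inside it were the peak 0.663 kb from the Rtl1 start at E10.5 and those 0.765 kb and 0.769 kb from the Impact start at E10.5 and E11.5. Just outside were peaks 1.02 kb from the outer Igf2 start and 1.14 kb from Rian at E10.5, and 1.15 kb and 1.38 kb from the second Grb10 start at E10.5 and E11.5. The peaks near Rtl1 and Rian are the same peak, because the genes lie on opposite strands with starts close together.

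Promoter peaks of members ranged widely in the authors' signal value, a total over the peak that grows with its width and starts just above 200 in each list. The median over the 41 peaks within 1 kb of a member's start was 2835 at E10.5, beside 3809 over all autosomal promoter peaks. Over the 41 such peaks of the E11.5 list it was 999, beside 2530. Peaks of the windows at starts of other genes only had medians of 4442 (13 peaks) and 2811 (7 peaks). The highest promoter values at E10.5 were 15721 at Igf2 (rank 383 of the list), 13755 at Peg3 (rank 633), 12867 at Cdkn1c (rank 801) and 11708 at Gnas (rank 1142). At E11.5 they were 13324 at Peg3 (rank 67), 9252 at Gnas (rank 325), 5598 at Inpp5f (rank 2110) and 3820 at Grb10 (rank 4976). Peg3 and Gnas stood among the highest members in both lists. Igf2, first at E10.5, had 1440 (rank 12885) at E11.5. Its E10.5 peak of 5358 bp was overlapped by 4 E11.5 peaks, and 1440 belongs to 1 of these, 1349 bp wide. The Igf2 values are thus totals over unlike widths. The lowest promoter values were 427 at Rtl1 and 465 at Nap1l5 at E10.5, and 366 at Meg3, 389 at Phlda2 and 403 at Nap1l5 at E11.5.

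**Figure D2:**
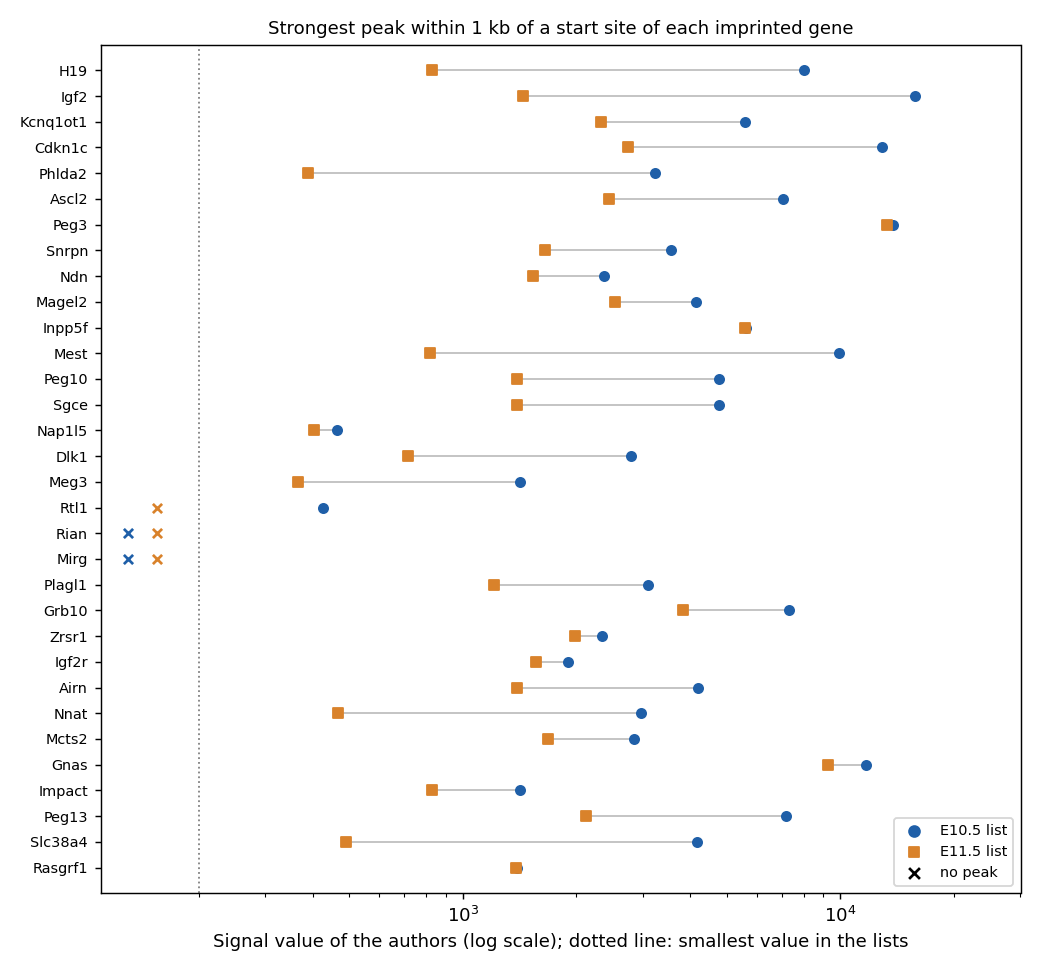
Signal value (x axis, log scale) of the strongest peak within 1 kb of a start of each of the 32 genes, in cluster order, with blue circles for the E10.5 list and orange squares for the E11.5 list. Crosses left of the smallest value in the lists (dotted line) mark genes with no such peak, namely Rian and Mirg in both lists and Rtl1 at E11.5; each point is 1 list, with no error.

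Control regions were covered by 18 windows: 15 of 2 kb centred on a start site that is a maternally methylated control region, and 3 intergenic windows for the paternally methylated ones. The intergenic windows lay 2 to 4 kb upstream of H19, 10 to 16 kb upstream of Meg3 and 25 to 35 kb upstream of Rasgrf1. Windows were set from general knowledge, and some were chosen with earlier results of these data known. The counts of windows with a peak are therefore not independent of the peaks. No window was set in the Inpp5f, Grb10 and Impact clusters, so control regions there were not counted and no peak there was assigned to one. All 18 windows held a peak in each list. Of all RefSeq promoters, 58.4% had a peak within 1 kb in the E10.5 list and 48.9% in the E11.5 list. Of those with at least 10 CpG, 95.2% and 90.7% did. The share over other intergenic windows of like length was not computed. Counting no peak with −log10 p below 5, 17 windows of the E10.5 list and 11 of the E11.5 list held one. The window without one in either list was that of Nap1l5, and the others without one at E11.5 were those of H19, Dlk1-Meg3, Rasgrf1, Mest, Nnat and Slc38a4. All 3 paternally methylated regions were among them, and 4 of the 15 maternally methylated starts. The former are also all the intergenic windows and the latter all lie at starts, so methylated parent and position cannot be told apart. Of the 105 E11.5 peaks in the member windows, 56 reached this limit. The share of all promoters with a peak at this limit was not computed.

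The peak with the most bases in the H19 control window spanned 2666 bp with a signal of 6484 at E10.5, and 188 bp with a signal of 204, at the bottom of the list (rank 37160), at E11.5. The intergenic Dlk1-Meg3 window held a peak of 4531 at E10.5 and one of 470 at E11.5, 1922 and 266 bp wide. The Rasgrf1 window held nearly the same short interval in both lists, 290 bp with 544 and 294 bp with 398, the lowest value of the 18 windows at E10.5 after that of Nap1l5. It lies 29.8 kb upstream of the gene and so outside the 20 kb window that gave the 251 and 105 peaks.

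Among the maternally methylated starts, the Peg3 window had the highest signal in both lists, 13755 and 13324, from peaks of 4000 and 3958 bp. At E10.5 the windows of Mest and Peg13 had 9945 and 7157, and at E11.5 817 and 2123. Nespas, an antisense noncoding RNA of the Gnas cluster, had 5379 and 2887 at its start, and the Gnas exon 1A window had 2909 and 2331. Next to these, Nap1l5 had the lowest E10.5 value, 465, with 403 at E11.5. The remaining 9 start windows lay between 1991 (Peg10) and 5604 (Kcnq1ot1) at E10.5 and between 466 (Nnat) and 2328 (Kcnq1ot1) at E11.5.

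**Figure D3:**
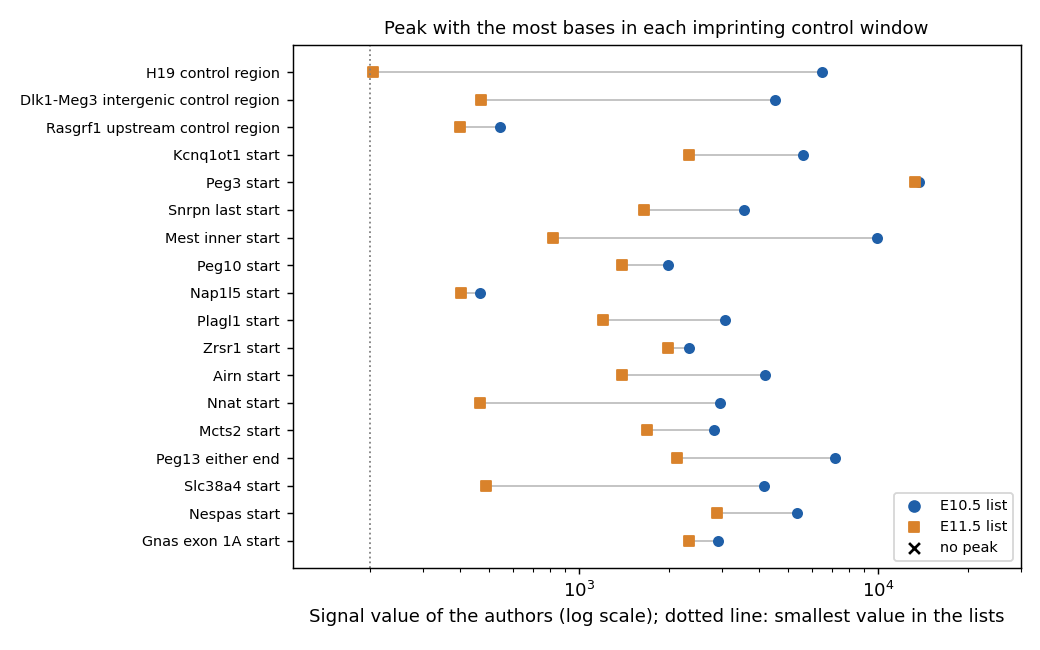
Signal value (x axis, log scale) of the peak with the most bases in each of 18 imprinting control windows, with blue circles for the E10.5 list and orange squares for the E11.5 list. Every window has both points; the H19 control region sits at 6484 and at 204, next to the smallest value listed (dotted line), and Peg3 at 13755 and 13324.

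In the H19 to Igf2 cluster on distal chromosome 7, a single control region governs the maternal noncoding RNA H19 and the paternal growth factor Igf2, which share enhancers beyond H19. The strongest peak of any member window lay there, a 7056-bp interval over the 3′ end of H19 and the sequence beyond it (142568760 to 142575815), with a signal of 25060 and rank 55 at E10.5. The list had 19 peaks in the cluster, 6 of which overlapped an E11.5 peak, and the E11.5 list had 9. The H19 start peak had 8012 at E10.5, and that of the E11.5 list had 827. A second strong E10.5 peak, 22.4 kb downstream of the H19 start, had 12248. Of 4 Igf2 starts, the inner 3 lay under 1 E10.5 peak of 5358 bp and 15721, which was overlapped by 4 E11.5 peaks. The 3 of these within 1 kb of a start had 999, 1440 and 767. The outer Igf2 start had none within 1 kb.

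In the neighbouring Kcnq1 cluster, the control region is the start of Kcnq1ot1, a paternal antisense RNA that silences its neighbours. Its peak had 5604 at E10.5 and its strongest E11.5 peak 2328. The maternally expressed genes Cdkn1c, Ascl2, a transcription factor of trophoblast, and Phlda2, which limits placental growth, had 12867, 7038 and 3224 at E10.5. They had 2747, 2439 and 389 at E11.5. A peak of 12678 whose near edge lay 2.58 kb upstream of Cdkn1c, at the start of the predicted gene Gm33663, was nearly as high as the Cdkn1c promoter at E10.5. The cluster held 22 E10.5 peaks, 6 of them overlapping, and 10 E11.5 peaks.

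Elsewhere on chromosome 7, Peg3, which encodes a zinc finger protein, shared its start peak with Usp29. The peak had nearly the same ends in both lists. The next highest in its window was at the start of Zim1, 4749 and 3042, and a peak 17.1 kb upstream (1623) was listed at E10.5 only. In the Snrpn cluster, Snrpn encodes a ribonucleoprotein subunit of splicing. Of its 4 starts only the last, shared with Snurf, had peaks, 3565 at E10.5 and 1646 with 689 at E11.5. The MAGE family genes Ndn and Magel2 had 2360 and 4137 at E10.5 and 1531 and 2527 at E11.5. That cluster had nearly as many E11.5 peaks as E10.5 peaks, 7 and 8, with 6 of the 8 overlapping. At Inpp5f, a phosphoinositide phosphatase gene with an imprinted short variant, the start of the full-length gene had 5623 and 5598. The others named there lay 60.7 kb into the gene (2007, E10.5 only) and 76.6 kb into it (578 at E11.5, overlapping an E10.5 peak of 1599). A further one lay 94.3 kb from the start (1652 at E10.5, 252 at E11.5).

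The Mest window on chromosome 6 held 13 peaks of the E10.5 list and 3 of the shorter E11.5 list. Mest encodes a hydrolase-family protein of mesoderm. Its 13 E10.5 peaks included the 3670-bp peak of 9945 over the inner start, which 3 E11.5 peaks of 817, 510 and 210 overlapped. At the outer start the 3 E10.5 peaks of 744, 221 and 818 had no E11.5 counterpart. A 3912-bp peak of 8920 just past the gene's 3′ end (30748513 to 30752424, rank 2719) had none either. Of the 13 E10.5 peaks, 1 overlapped an E11.5 peak, beside 32% of all autosomal E10.5 peaks. Low counts were not particular to Mest: 1 of 7 overlapped at Plagl1 and 2 of 11 at Slc38a4.

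Peg10, derived from a retrotransposon, and Sgce, the epsilon-sarcoglycan gene, start back to back, so the same peaks served both. The peak over both starts had 1991 at E10.5, with 1393 at E11.5. An E10.5 peak beginning 0.46 kb into Peg10 had 4757. The E11.5 peaks overlapping the latter had 617 and 2833, and that of 2833 lay 1.18 kb inside Peg10, outside the promoter distance. A peak 13.8 kb downstream of the Peg10 start had 2523, and the E11.5 peak overlapping it had 873. Nap1l5, a nucleosome assembly family retrogene, had a higher peak 3.41 kb downstream of its start (1848, and 743 at E11.5) than at the start. Another 4.52 kb downstream (634) was listed at E10.5 only.

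The Dlk1 to Mirg cluster on chromosome 12 combines the paternally expressed Dlk1, a noncanonical Notch ligand, and Rtl1, derived from a retrotransposon, with the maternal noncoding RNAs Meg3, Rian (a snoRNA host) and Mirg (a microRNA host). The 28 E10.5 peaks included 8 that overlapped 1 of the 9 E11.5 peaks. Dlk1 had 2795 at its start at E10.5 and 716 at E11.5, but peaks upstream of it were higher at E10.5, 7571 at 14.4 kb and 6447 at 1.89 kb. A peak 6.47 kb upstream had 723 at E11.5 and overlapped an E10.5 peak of 3089. Meg3 had 1414 and 366 at its first start and none at its second. Rtl1 had a single low E10.5 peak of 427 near its start. At the far end, a peak reaching from the end of Mirg to beyond it, 13.9 kb from its start, had 7349 at E10.5. Its E11.5 counterpart, with 1837, was the highest of that list in the cluster. The windows of Rtl1 and Rian held 9 and 5 E10.5 peaks and no E11.5 peak.

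**Figure D4:**
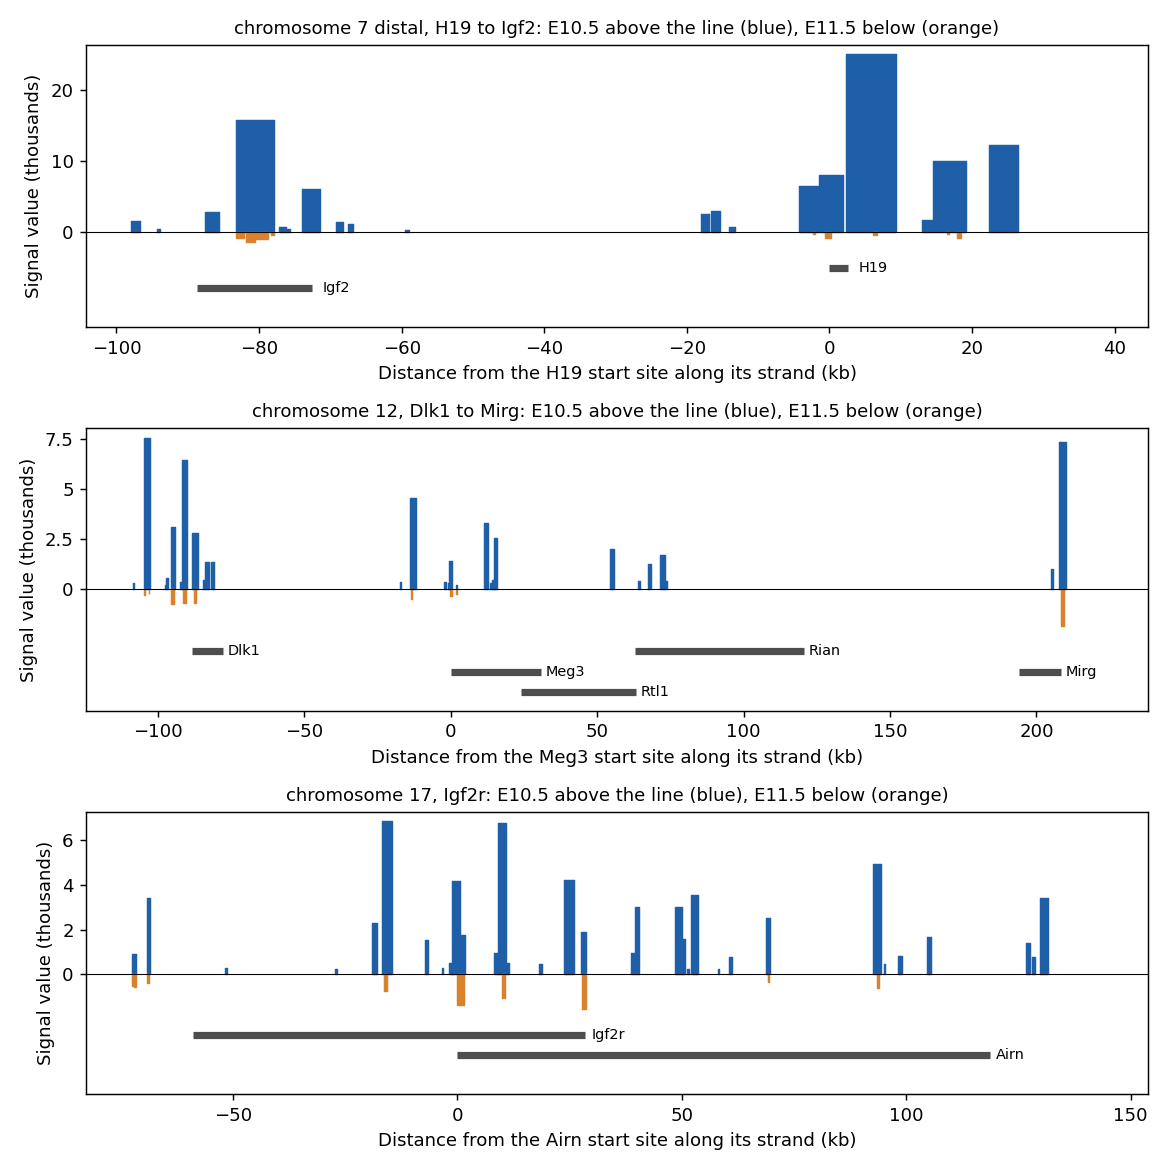
Peaks of the H19 to Igf2, Dlk1 to Mirg and Igf2r clusters by distance from the start of H19, Meg3 and Airn along its strand (x axis, kb), drawn to width, with signal divided by 1000 (y axis) upward in blue for the E10.5 list and downward in orange for the E11.5 list. Grey bars are gene bodies; the 7056-bp E10.5 peak of 25060 next to H19 and the gap in E11.5 peaks over Rtl1 and Rian are visible.

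In the Igf2r cluster on chromosome 17, Airn starts inside Igf2r and runs against it, and its paternal transcription silences Igf2r. The Airn start had peaks of 4189 and 1749 at E10.5 and 1 of 1388 at E11.5, and the Igf2r promoter had 1900 and 1566. Igf2r was thus below Airn at E10.5 and above it at E11.5, with no replicates to judge either order. The highest E10.5 peaks were outside both starts, 14.6 kb upstream of Airn (6859), 9.13 kb downstream of it (6791, and 1075 at E11.5) and 64.2 kb upstream of Igf2r (4950). This cluster held 33 E10.5 peaks, the most of the 20 clusters in that list, with 9 overlapping, and 9 E11.5 peaks.

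On chromosome 11, Grb10, an adaptor that restrains growth factor signalling, had 7300 and 3820 at its outer start. A peak inside its second, internal start, 1.15 kb away at E10.5, had 3018, and 2511 at E11.5. Another, 78.5 kb downstream of the second start, had 4579 at E10.5. An E11.5 peak of 630 lay 1.75 kb upstream of the outer start, inside the E10.5 peak of 7300. The window held 22 and 8 peaks. Zrsr1, a splicing factor retrogene inside Commd1, had 2332 and 1983, and the starts of its host Commd1 (4811 and 3182) and of Cct4 (3078 and 3476) were higher in each list. Plagl1 on chromosome 10, a zinc finger gene sharing its start with the noncoding Hymai, had 3089 and 1206 there. Its other 6 E10.5 peaks, the highest 2023 and 657 at 16.4 and 26.3 kb into the gene, overlapped no E11.5 peak.

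On chromosome 2, Nnat, which encodes the membrane protein neuronatin, had 2957 and 2677 at its start at E10.5 and 466 at E11.5, where a peak 1.11 kb downstream had 578. Blcap, the gene in whose intron Nnat lies, had 4442 and 2087 at a start. The highest E10.5 peak of the window, 2.91 kb upstream of Nnat (157555604 to 157557166, signal 6188), overlapped no E11.5 peak. Mcts2, a retrogene inside H13, had 2835 and 1683 at its start, and the H13 start had 10090 and 2752. The highest peak there was 18.2 kb downstream of Mcts2, 14172 (rank 553), and the highest of the E11.5 peaks at that place had 1596. A peak 8.71 kb downstream had 4132 at E10.5.

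Gnas encodes the stimulatory G protein alpha subunit, and its locus makes several imprinted transcripts from separate starts. The innermost start, that of the main transcript, lay under the peak of 11708 at E10.5 and had 9252 at E11.5, while the outermost had 2114 and 399. The exon 1A starts between them had 2909 and 2331, and a peak 14.8 kb upstream of those had 3625 at E10.5. Of 16 E10.5 peaks 7 overlapped, and 9 E11.5 peaks were listed.

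At Impact on chromosome 18, which regulates translation, the peak near the start had 1419 and 827. The peak 18.0 kb into the gene was higher, 9509 (rank 2235) at E10.5 and 5837 (rank 1861) at E11.5. The start of the neighbouring Osbpl1a had 3455 and 2811. A 183-bp peak 5.3 kb upstream of Impact had 950 at E11.5 and overlapped an E10.5 peak of 1217. The Impact cluster was the only one whose E10.5 peaks, all 6, overlapped the other list throughout. Rasgrf1 on chromosome 9, which activates Ras in neurons, came next with 5 of 6. Its start had 1390 and 1387 in near-identical intervals, and a peak 11.2 kb into the gene had 1779 and 761.

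On chromosome 15, the noncoding Peg13 had peaks at 1 end of its body, 7157 at E10.5 and 2123 and 316 at E11.5. A peak beyond that end by 7.37 kb (1764) was E10.5-only. The amino acid transporter Slc38a4 had 4170 and 489 at its outer start and none at its 2 inner starts. A peak 18.2 kb from the nearest inner start had 7395, and 1093 at E11.5, and 1 lying 5.2 kb inside the gene (1262) was E10.5-only.

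Over all windows, 85 of the 251 E10.5 peaks overlapped an E11.5 peak by at least 1 bp, which is 33.9% (95% Wilson interval 28.3 to 39.9, for counting error only). Over all autosomal E10.5 peaks the share was 32%. All 105 E11.5 window peaks overlapped an E10.5 peak (100%, interval 96.5 to 100), beside 91.9% of all autosomal E11.5 peaks. No member window therefore held an E11.5-only peak. The E10.5 list is the longer, and its share of overlap moved with place: it was 34 of 41 (82.9%) within 1 kb of a member's start, 9 of 13 (69.2%) at starts of other genes only, and 42 of 197 (21.3%) farther away. Over all autosomal peaks it was 77.4% within 1 kb of the start of a gene of known strand and 21.9% farther away, near the shares in the windows. Neighbouring peaks of a cluster are not independent, and the intervals do not take that into account.

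When the lists were cut to the same number of peaks by signal, 63.4% of the E10.5 window peaks and 84.8% of the E11.5 window peaks overlapped the other list, beside 68.9% and 75.3% of all autosomal peaks. The complete overlap of the E11.5 window peaks was thus not kept at equal list lengths. Only the E10.5 list was shortened, which can only lower that share, and why the lists differ in length was not tested.

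The top decile of signal began at 4938 at E10.5 and 4427 at E11.5. It held 31 of 251 window peaks (12.4%, interval 8.84 to 17) at E10.5 and 4 of 105 (3.81%, interval 1.49 to 9.39) at E11.5, where 10% would match the list. These intervals are for counting error only and treat neighbouring peaks as independent, so they do not test either share against 10%. The 4 were at Peg3, Gnas, Inpp5f and the peak inside Impact. Of the 31, 28 overlapped an E11.5 peak (90.3%), beside 96.7% of all E10.5 peaks of that decile. The 3 that did not were those past Mest and upstream of Nnat given above, and a 2582-bp peak of 6038 at the 3′ end of Igf2.

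Other imprinted genes and the factors that keep imprints were taken from written lists. Of 46 further genes reported as imprinted in mouse, 45 were located, and 40 had a promoter peak at E10.5 and 34 at E11.5, beside the 70.1% and 63.9% of protein-coding genes given above. Those without one at E10.5 were Ins2, an insulin gene, the transporter genes Slc22a18 and Slc22a2, Ddc, which encodes a decarboxylase of monoamine synthesis, and Herc3. A further 6 had one at E10.5 only: Th, the rate-limiting enzyme of catecholamine synthesis (1862), the transporter gene Slc22a3 (831), the potassium channel genes Kcnq1 (533) and Kcnk9 (926), the transcription factor gene Klf14 (545) and Gpr1 (424). None had one at E11.5 only. This list is not separate from the members, since Usp29 is counted by the start peak of Peg3 and some other starts lie in member windows. It also holds the noncoding Nespas, while the share set beside it is of protein-coding genes.

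Of 14 genes for imprint maintenance and related silencing, 13 had a promoter peak at E10.5 and 12 at E11.5, beside the same 70.1% and 63.9%. Zfp57 and Zfp445, zinc finger proteins that bind control regions, had 4703 and 1661 at E10.5 and 2030 and 1769 at E11.5. Trim28, the corepressor they recruit, had 14117 and 11789, Ctcf had 10194 and 6045, and Dnmt1, the maintenance methyltransferase, had 5938 and 3936. Dppa3, which protects methylation in the zygote, had no peak in either list. Dnmt3l, a cofactor of methylation in germ cells, had 2372 at E10.5 and none at E11.5.

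Promoters of marker genes were also described, from lists chosen with earlier results of these data known, so they do not check the tissue label. All 10 limb mesenchyme genes examined, such as Prrx1, Msx1 and Hand2, had a promoter peak in each list, beside 70.1% and 63.9% of protein-coding genes. Of all promoters with at least 10 CpG, 95.2% and 90.7% had one, and the CpG counts of the markers were not computed. Of 5 neuron, 5 liver and 5 endothelium markers, 4, 1 and 2 had one at E10.5 and 2, 0 and 1 at E11.5, and of 4 located blood markers 2 and 3 did. Among those with a peak, the synaptic genes Syt1 and Snap25 had 4373 and 3325 at E10.5 and 4228 and 2819 at E11.5. The erythroid genes Klf1 and Tal1 had 4885 and 845 in the E10.5 list, 2495 and 2779 in the other, and the endothelial receptor gene Kdr had 3674 and 2207. Peaks listed at E10.5 only were those of the liver gene Apoa1 (5302), the neuronal Stmn2 (399) and Elavl3 (529) and the endothelial Cdh5 (386), while Hbb-bt had 239 at E11.5 only. The liver genes Alb, Afp, Ttr and Hnf4a, the pan-leukocyte gene Ptprc and the endothelial genes Pecam1, Tek and Emcn had none in either list. The part that other cell types of the limb have in the imprinted peaks was not tested.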

How the data were processed

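Chromatin accessibility was measured by ATAC-seq in wild-type mouse limb cells, 2 samples at E10.5 and 2 at E11.5, grouped by their titles. The files analysed are 2 narrowPeak lists on mm10, per the file headers. The submitters' processing notes name cutadapt, Bowtie2, SAMtools, deepTools and Genrich. Their settings, the joining of replicates and any Tn5 offset of read positions are not given in the sources used here. Each can change peak number and width.

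The deposited signal value is a total over the peak and grows with width. Each peak also has a deposited −log10 p-value. The deposited q-value column holds a placeholder throughout. The deposited score equals signal per bp, scaled and capped, and was not used. All are the authors' values, and ranks and limits were applied inside each list. Depth per sample is unknown.

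Start sites and strands came from the RefSeq promoter table (GRCm38.p6) where it held the gene. Otherwise the start was the outer end of the gene in the RefSeq gene table of the same assembly, with strand by symbol from GENCODE M1, whose NCBIM37 coordinates were not used. Peg13 had no strand, so either end counted. A promoter peak lies within 1 kb of any start. Control windows were set by distance from starts. Lists were compared by overlap of at least 1 bp on the 19 autosomes, with 95% Wilson intervals. Overlap counting was tested on simulated intervals. No test between stages was made.

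Values are given for every promoter and control-window peak on which a gene's result rests, and for the 3 highest peaks per cluster. The members and lists, and some control windows, were chosen with earlier results of these data known. Peaks at the edges of rules, those of the top decile without overlap and the printed sequences were chosen after their values were seen. Alternatives were a −log10 p limit of 5, lists of matched number by signal or −log10 p, summits in place of intervals, promoters of 500 bp or 2 kb, flanks of 0 or 50 kb, and stricter overlap. Python 3.11.15, pandas 2.3.3, numpy 2.4.6, scipy 1.17.1 and matplotlib 3.10.9 were used.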

Additional observations from a re-analysis of the deposited data

How the results depend on the processing

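Each result is 1 count or share from 1 list per stage, so the changes below show the effect of a rule and not of error. Of 48 alternative values, 31 stayed within 1.5 times the main count or within its interval and 17 moved. Genes with a promoter peak under the alternatives numbered 25 to 31 in the E10.5 list and 22 to 29 in the E11.5 list. Using only the outer start, an alternative chosen after seeing the data, gave 28 and 26. With −log10 p of at least 5, control windows with a peak at E11.5 numbered 11 and not 18. The number of window peaks at E10.5 was 145 with that limit, 112 and 103 with equal list lengths chosen by signal or −log10 p, 154 without flanks and 377 with flanks of 50 kb. At E11.5 it was 56 with the limit, 69 without flanks and 160 with 50 kb. The share of E10.5 window peaks that overlapped was 63.4% and 68.9% at those equal lengths, 18.3% when 50% of both peaks had to overlap and 27.5% for summits within 100 bp. For E11.5 window peaks these shares were 84.8%, 84.8%, 43.8% and 64.8%. No paired analysis was possible because the replicates of a stage share 1 list, nor could either of them be omitted. Depth, unknown here, can set how many peaks a list holds.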
